A study of Mus musculus with 35 samples.

Results

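The replication-dependent histone genes are the clustered genes that encode the linker histone H1 and the core histones H2A, H2B, H3 and H4. They were taken by symbol (H1f1 to H1f5, and every numbered H2ac, H2bc, H3c and H4c gene), which gave 63 of the 25655 genes in the deposited tables. Of these, 5 encode H1, 17 encode H2A, 17 encode H2B, 12 encode H3 and 12 encode H4. In GRCm39, 53 of the genes lie on chromosome 13 and 10 on chromosome 3. The rule used names only and no measured value, though it was set with earlier results of these data known. H2bc1, a testis H2B gene, had a level of 0 and no log2 fold change in any table, so 62 of the 63 had at least 1 value.

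All samples were retinas of wild-type mice, described in the series text as wild type for Cx3cr1. The 35 samples formed 7 groups. Diabetic retina was taken at 6 weeks of diabetes (D6, 5 samples), at 8 weeks with PBS (D8, 5) and at 10 weeks with PBS (D10, 5). At 8 weeks a further diabetic group had 2 weeks of microglia depletion (D8_depleted, 4). At 10 weeks another had 2 weeks of depletion followed by 2 weeks of recovery (D10_repopulated, 5). Non-diabetic retina with the same depletion and recovery formed ND_repopulated (5), and untreated non-diabetic retina formed ND (6). The labels call the depleting agent DTx and the series text names the chow drug PLX-5622, so the agent is called only depletion here. Nothing in the labels ties a sample to its own animal, so the p-values measure the spread between samples, which may be technical. PBS was given to D8 and D10 but is not in the labels of any other group, so PBS and diabetes cannot be told apart in D8 or D10 against ND. Nor can PBS and depletion in D8_depleted over D8, or PBS and depletion with recovery in D10_repopulated over D10. PBS and weeks of diabetes cannot be told apart between D6 and D8 or D10. The limit also carries to the difference between recovery in diabetic and in non-diabetic retina. The deposited tables hold 8 comparisons with no value per sample, so no spread within a group is given, and sequencing depth per sample is unknown. Each error below is the standard error implied by the deposited p (the log2 fold change over the normal quantile of p), and a gene was called when its deposited false discovery rate (FDR) was under 0.05.

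In a dividing cell, these genes supply the histones that package newly copied DNA, and their messages are made mainly in S phase. Their messages are unusual among animal messenger RNAs because most end not in a poly(A) tail but in a short hairpin, the stem-loop, which the stem-loop binding protein Slbp holds and near which the message is cleaved with the help of the U7 small nuclear RNA. Some of these genes also make polyadenylated messages in cells that have stopped dividing, the state of nearly all cells of adult mouse retina. The libraries were made from RNA captured by its poly(A) tail, per the labels' protocols, so the levels here reflect captured messages, and a change in the amount of message and a change in its share with a tail cannot be told apart. In bulk retina, fewer cells of a type and less RNA per cell cannot be told apart either.

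The stem-loop is the feature that sets these messages apart, and it is shown for some of the genes called in the results below. Each stretch comes from the GENCODE M21 transcript of the gene, 5 bases before to 9 bases after the stem-loop, 5′ to 3′, with the 16 bases of the stem-loop in capitals.
H1f2: caaaaGGCTCTTTTCAGAGCCaccactccc
H1f4: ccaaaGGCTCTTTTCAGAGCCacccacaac
H2ac18: aaaaaGGCTCTTTTCAGAGCCacccactga
H2bc6: ccaaaGGCTCTTTTCAGAGCCacccaacag
H3c15: acaaaGGCTCTTTTCAGAGCCaccacagct
H3c4: ccaaaGGCTCTTTTCAGAGCCacccccgtt
H4c9: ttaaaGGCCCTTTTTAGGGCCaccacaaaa
H4c14: ctaacGGCCCTTTTTAGGGCCaaccacagt
H4c3: caaaaGGCCCTTTTCAGGGCCacccacaaa
H3c7: aaaacGGCTCTTTTAAGAGCCacctccatt
The stem of H1f2, H1f4, H2ac18, H2bc6, H3c15 and H3c4 is the commonest form, found in 24 members. The H4 genes carry a stem with other pairs, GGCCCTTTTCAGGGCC as in H4c3 (6 members) or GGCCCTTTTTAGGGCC as in H4c9 and H4c14 (2 members). H3c7 has the form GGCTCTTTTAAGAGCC, found in 5 members, and 1 further gene, H2ac20, carries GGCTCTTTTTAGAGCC. The search was for these forms on the transcript's own strand after the stop codon, with any base allowed at bases 3, 4, 10 and 13 of the stem-loop.

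Of the 63 transcripts, 48 had at least 30 annotated bases after the stop codon, and 38 of those held a stem-loop. The annotated transcript ran 100 or more bases past the stem-loop in 17 members, among them H1f4 with 1153 bases, H1f2 with 840 and H4c9 with 330. It ended within 100 bases of the stem-loop in 21, among them H2ac18, which ends 35 bases after it. No stem-loop was found in 10, and the other 15 were annotated too short after the stop codon to look.

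The upstream regions of the chromosome 13 genes that recur below are shown for 1 member of each of 4 classes, as windows of 250 bases before to 50 bases after the start, from RefSeq in GRCm38.p6, an older build than that of the deposited coordinates. Capitals mark 3 motifs searched on both strands. The first is the CCAAT box. The second is the TATA box, spelled TATAAA. The third is the H1 box, spelled AAACACA. The octamer of H2A and H2B promoters (ATTTGCAT) was searched too and has no match in these 4 windows. None of these motifs contains another.
H1f4, chr13:23622509-23622808, minus strand: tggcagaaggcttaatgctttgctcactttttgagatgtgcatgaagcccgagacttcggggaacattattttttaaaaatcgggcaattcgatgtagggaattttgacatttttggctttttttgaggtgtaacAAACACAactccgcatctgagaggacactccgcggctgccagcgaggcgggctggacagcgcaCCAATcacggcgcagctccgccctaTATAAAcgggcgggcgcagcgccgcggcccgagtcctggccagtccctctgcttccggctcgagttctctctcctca
H2bc9, chr13:23543395-23543694, minus strand: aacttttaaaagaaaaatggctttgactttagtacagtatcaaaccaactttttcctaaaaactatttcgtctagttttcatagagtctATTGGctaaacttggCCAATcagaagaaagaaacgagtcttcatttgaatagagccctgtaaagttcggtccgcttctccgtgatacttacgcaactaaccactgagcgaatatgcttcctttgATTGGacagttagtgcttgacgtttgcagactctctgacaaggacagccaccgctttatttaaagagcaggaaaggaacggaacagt
H3c4, chr13:23575513-23575812, plus strand: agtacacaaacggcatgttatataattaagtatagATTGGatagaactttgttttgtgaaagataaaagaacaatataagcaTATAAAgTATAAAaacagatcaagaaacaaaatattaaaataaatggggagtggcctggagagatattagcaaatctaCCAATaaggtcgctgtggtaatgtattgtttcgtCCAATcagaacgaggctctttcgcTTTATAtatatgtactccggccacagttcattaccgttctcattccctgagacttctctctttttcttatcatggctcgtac
H4c12, chr13:21750504-21750803, minus strand: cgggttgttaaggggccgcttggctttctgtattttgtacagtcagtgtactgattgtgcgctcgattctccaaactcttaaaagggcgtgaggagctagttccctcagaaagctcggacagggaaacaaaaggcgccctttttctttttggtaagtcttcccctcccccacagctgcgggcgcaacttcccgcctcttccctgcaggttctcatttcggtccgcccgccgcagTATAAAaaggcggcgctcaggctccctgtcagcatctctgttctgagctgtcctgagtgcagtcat
A RefSeq window was matched for 57 members. CCAAT was present in 49 of them, against 37.4% of all 32851 windows of the same length, and the 49 were all 5 H1, 17 H2A, 14 H2B and 10 H3 windows and 3 of the 11 H4 windows. TATAAA was present in 34, against 13.6% of all windows. ATTTGCAT was present in 12, against 1.74% of all windows, and these were 6 H2A and 6 H2B genes. AAACACA was present in 8, against 7.18% of all windows, and these included 4 of the 5 H1 genes. These matches describe letters and do not show that a factor was bound.

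The histone genes were low in most cases, and a few carried most of the signal. Each table gives 1 level per gene, that of whichever group was higher on average, in a unit that is not stated. Among single-exon genes the lowest level above 0, multiplied by gene length, was between 4.495 and 4.709 in every length class, so the level behaves as a value per length with a step that stands for about 1 read in a group, and levels may be set side by side between genes. H2bc4, an H2B gene, was the highest member, with a mean level over the 8 of the authors' deposited tables of 132. H2ac18, an H2A gene, averaged 68.6, and H1f2, a linker histone gene, averaged 64.3 in the same tables. The leading H3 gene was H3c15 at 19.2 and the leading H4 gene was H4c9 at 14.8. By this step the level stood for under 10 reads in the highest group in 19 members, and these were called in none of the 8 comparisons.

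**Figure D1:**
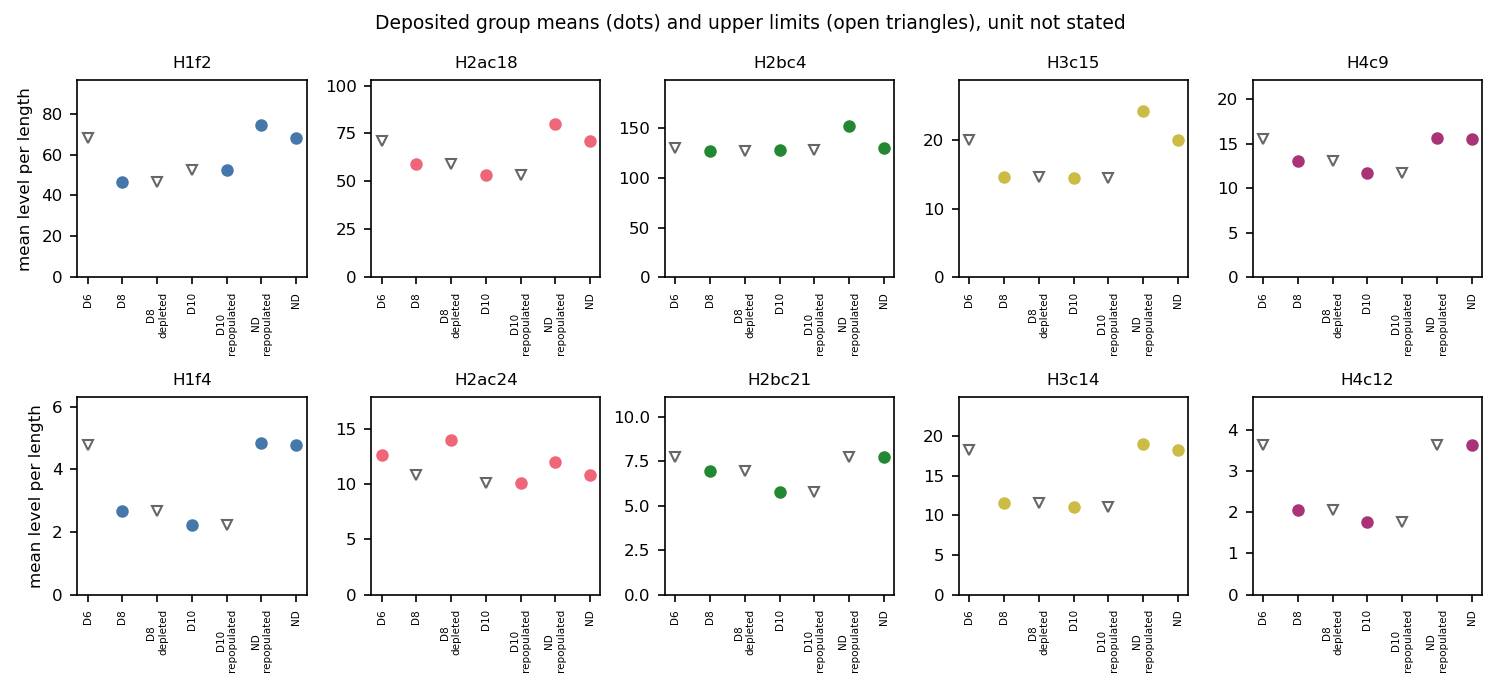
Deposited mean level per length (vertical axis, from 0, unit not stated) in each group (horizontal axis) for the 2 members of each class with the highest mean level. Dots are group means that a deposited table gives and open triangles are the upper limits that hold where the group was the smaller of its pair; H2bc4 has means of 127 in D8, 128 in D10, 152 in ND_repopulated and 130.2 in ND.

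A group mean could be read from the authors' deposited tables only where that group was the larger of its pair, and the other groups have an upper limit. H2ac18 had a mean level of 58.9 in D8, 53.4 in D10, 79.8 in ND_repopulated and 71.3 in ND, and was at most 71.3 in D6. H3c14 had a mean level of 11.6 in D8, 11.0 in D10, 19.0 in ND_repopulated and 18.2 in ND. H1f4 had a mean level of 2.67 in D8, 2.21 in D10, 4.84 in ND_repopulated and 4.79 in ND. The order was therefore alike for H2ac18, H3c14 and H1f4, with both non-diabetic groups above D8 and D10. For H2bc4 the means of D8 and D10 lay close to that of ND.

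At 6 weeks of diabetes, 21 histone genes fell and none rose in D6 relative to ND. They were 34.4% of the 61 members with a deposited FDR, while 9.31% of all 17876 genes tested were called lower and 14.1% higher. The median log2 fold change of the 61 was -1.06, against 0.04 over all genes tested, and 48 of the 61 were below 0. Over all 62 members with a log2 fold change the median was -1.04. Each class had called genes: 4 of 5 for H1, 4 of 17 for H2A, 4 of 15 for H2B, 4 of 12 for H3 and 5 of 12 for H4. The class medians on the log2 scale lay between -1.59 for H1 and -0.71 for H2B.

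The linker histones, which bind the DNA between nucleosomes, fell in 4 of their 5 genes in D6. H1f4 fell by 2.25 on the log2 scale (SE 0.44, FDR 1.54e-05), a level 4.76 times lower in D6 than in ND in the authors' deposited table. H1f1 fell by 1.83 (SE 0.56, FDR 0.0085) and H1f3 fell by 1.59 (SE 0.52, FDR 0.0161), also in the authors' deposited table. H1f2, the H1 gene with the highest level, fell by 0.85 (SE 0.23, FDR 0.00233). H1f5 had a log2 value of -1.16 and was not called (SE 0.89, FDR 0.364). H1f4 overlaps H2bc6 on the same strand, and 21.68% of its 100-base stretches also occur in H2bc6, so reads of these 2 genes cannot be fully separated.

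For H2A, which pairs with H2B in the nucleosome, the 4 genes that fell in D6 were H2ac18, H2ac6, H2ac7 and H2ac8. H2ac18 fell by 0.78 on the log2 scale (SE 0.15, FDR 1.67e-05), a level 1.71 times lower than in ND. H2ac7 fell by 2.65 (SE 0.76, FDR 0.00445) and H2ac8 fell by 2.87 (SE 1.05, FDR 0.0312) in the authors' deposited table, each from a low level. H2ac24, the second most abundant H2A gene, was not called, at a log2 value of 0.30 (SE 0.25). The difference between H2ac18 and H2ac24 was not tested.

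For H2B, H2bc4, H2bc6, H2bc9 and H2bc21 fell in D6. The most abundant of all members, H2bc4, fell by 0.71 on the log2 scale (SE 0.20, FDR 0.0048), and H2bc21 fell by 0.49 (SE 0.14, FDR 0.00553). H2bc6 fell by 1.95 (SE 0.41, FDR 5.77e-05) and H2bc9 fell by 1.17 (SE 0.30, FDR 0.0015) in the authors' deposited table. H2bc8 was measured as precisely as H2bc9 and was not called, at a log2 value of -0.37 (SE 0.26).

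Among genes of H3 and H4, which form the core tetramer, 9 fell in D6. H3c14 fell by 1.69 (SE 0.33, FDR 1.14e-05), H3c15 fell by 1.71 (SE 0.47, FDR 0.00291) and H3c4 fell by 1.45 (SE 0.50, FDR 0.0221) on the log2 scale. H3c2 fell by 3.43 (SE 1.23, FDR 0.0274), at a level that stood for at most 42.7 reads in a group. H4c12 fell by 2.50 (SE 0.48, FDR 9.75e-06), a level 5.65 times lower than in ND in the authors' deposited table. Of its 100-base stretches, 64.32% occur in other genes. H4c9, the H4 gene with the highest level, fell by 1.48 (SE 0.30, FDR 2.76e-05), and H4c3, H4c11 and H4c14 fell by 1.25 to 1.88. H4c1, H4c4 and H4c8 were not called, at log2 values of -0.24, -0.56 and -0.48. The 23 members with at least 100 reads held 17 of the 21 calls in D6, the 21 members with 10 to under 100 reads held 4, and those under 10 reads held none.

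**Figure D2:**
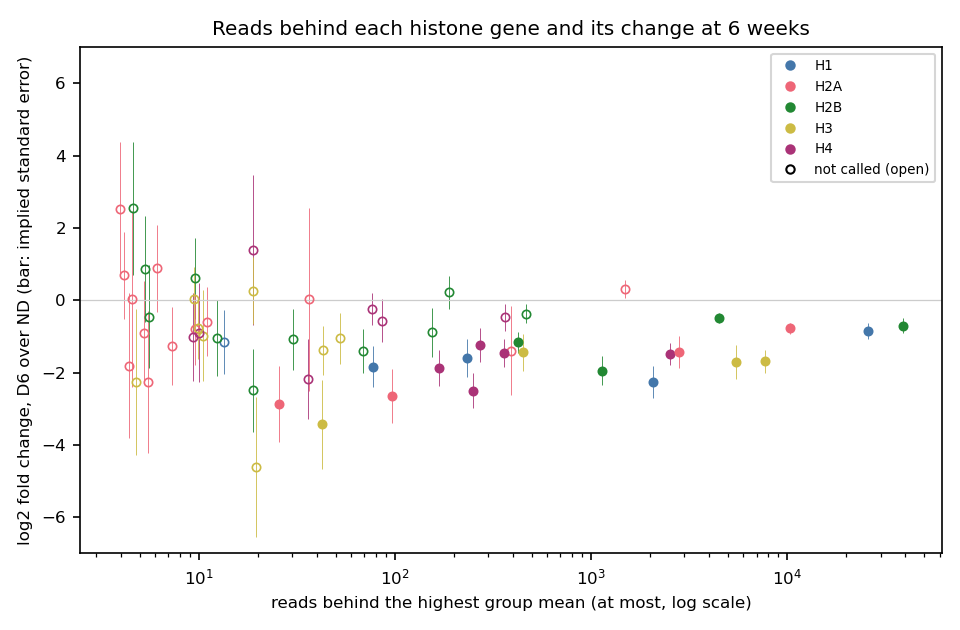
Log2 fold change of D6 over ND (vertical axis) for each histone gene with an FDR value, against the number of reads that its highest group mean can stand for (horizontal axis, log scale). Filled points are called, open points are not, colours are histone classes and bars are the implied standard error; below 10 reads no point is filled.

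At 8 and 10 weeks the histone genes were scarcely called. In D8, 1 of the 57 members tested fell relative to ND (1.75%), against 0.583% of all genes tested, and none rose, against 2.33% of all genes. The median log2 fold change of the 57 was -0.32, against 0.00 over all genes. In D10, 1 of the 56 tested fell (1.79%), against 1.41% of all genes tested, and none rose, against 5.59%. The median of the 56 was -0.37, against 0.00 over all genes. At an unadjusted p under 0.05 there were 9 members in D8, 8 of them lower and 1 higher, which is 15.8% of those tested, against 11.3% of all genes. In D10 there were 8, all lower, which is 14.3%, against 16.1% of all genes. H1f4 had a log2 value of -0.87 in D8 and -1.12 in D10 (SE 0.44 in each), and was called in neither. H2bc21 was the gene called in D10, where it fell by 0.43 (SE 0.14, FDR 0.0391) in the authors' deposited table; its log2 value in D8 was -0.20. The log2 values of H4c12 were -2.50, -0.84 and -1.02 in D6, D8 and D10. For H2bc4 they were -0.71, -0.07 and -0.04. These 3 comparisons share the ND samples, and D8 and D10 have PBS in their labels while D6 does not. The difference between the times was not tested.

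The gene called in D8 was H2ac19, which fell by 5.97 on the log2 scale (SE 1.44, FDR 0.00234). In its near-identical neighbour H2ac18 the value was -0.30 (SE 0.15, FDR 0.433). Every 100-base stretch of the H2ac19 transcript also occurs in H2ac18, and 88.09% of those of H2ac18 occur in H2ac19 or another gene, so the reads could be assigned to either and the H2ac19 value is uncertain.

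With microglia depleted at 8 weeks, 15 histone genes fell and 1 rose in D8_depleted relative to ND. The fall covered 24.6% of the 61 members tested, against 13.0% of all genes tested, and the rise 1.64%, against 15.5% of all genes tested. The median log2 value of the 61 was -0.73, and -0.72 over all 62 members with a value, against 0.02 over all genes. Of the genes that fell, 5 were H3 genes, 3 each were H2B and H4 genes, and 2 each were H1 and H2A genes. H4c12 fell by 2.88 on the log2 scale (SE 0.54, FDR 3.88e-06), a level 7.38 times lower in D8_depleted than in ND. It shares 64.32% of its 100-base stretches with other genes. H2bc6 fell by 2.01 (SE 0.44, FDR 8.27e-05), H1f4 fell by 1.94 (SE 0.47, FDR 0.00045) and H1f2 fell by 0.70 (SE 0.24, FDR 0.0193) in the authors' deposited table. The largest called fall was that of H3c2, a level 9.36 times lower, and 56.62% of its 100-base stretches occur in other genes. H3c7 fell by 2.97 (SE 1.00, FDR 0.0147) and H2bc11 fell by 1.78 (SE 0.70, FDR 0.0393), and neither was called in any other comparison. H2bc4 was not called, at -0.42 (SE 0.22, FDR 0.129). The gene that rose was H2ac23, by 5.42 on the log2 scale (SE 1.82, FDR 0.014), a low gene that shares 92.65% of its 100-base stretches with H2ac24, so this value is uncertain too; H2ac24 itself was at 0.32 (SE 0.26).

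Against D8, the group with the same weeks of diabetes and no depletion, few histone genes were called. In D8_depleted, 2 of the 46 members tested fell (4.35%), against 4.90% of all genes tested, and 1 rose (2.17%), against 5.85%. The share of falls was thus near that of all genes. The 2 that fell were H3c4, by 1.37 on the log2 scale (SE 0.47, FDR 0.0384), and H4c12, by 2.04 (SE 0.59, FDR 0.0121). For H4c12, 64.32% of the 100-base stretches occur in other genes. The gene that rose was H2ac19, by 4.57 (SE 1.21, FDR 0.00514), whose reads are shared with H2ac18 as above. The median of the 46 was -0.58, against 0.00 over all genes, and 37 of the 46 were below 0. Over the 59 members with a log2 fold change the median was -0.36, so it depends on which members are counted. H2bc6 fell short of the threshold at -1.24 (SE 0.45, FDR 0.0524), as did H1f4 at -1.07 (SE 0.43, FDR 0.0828).

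After recovery, 14 histone genes fell and none rose in D10_repopulated relative to ND. They were 24.6% of the 57 members tested, against 4.19% of all genes tested called lower and 7.49% called higher. The median log2 value was -0.61, the same over all 62 members with a value, against 0.02 over all genes. H2bc9 fell by 1.40 on the log2 scale (SE 0.31, FDR 0.000169), H3c14 fell by 1.50 (SE 0.33, FDR 0.000168) and H4c9 fell by 1.26 (SE 0.30, FDR 0.000706) in the authors' deposited table. H2bc6 fell by 1.79 (SE 0.41, FDR 0.000361) and H1f4 fell by 1.66 (SE 0.44, FDR 0.00332). The largest called fall was that of H2ac7, a level 3.90 times lower, and 63.64% of its 100-base stretches occur in other genes. The level of H3c4 was 3.32 times lower. H2ac18 and H2bc4, the 2 highest genes of the H2A and H2B classes, fell by 0.63 (SE 0.15, FDR 0.000894) and 0.61 (SE 0.20, FDR 0.0299).

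Against D10, no histone gene was called in D10_repopulated among the 42 tested, while 0.267% of all genes tested were called lower and 0.178% higher. At an unadjusted p under 0.05 there were 10 of the 42 (23.8%), all lower, against 1224 of 16826 genes (7.27%). The median of the 42 was -0.35, against 0.00 over all genes. H3c2 had the lowest FDR, 0.149, at a log2 value of -3.25 (SE 1.03) in the authors' deposited table. H3c4 was at -1.70 (SE 0.56, FDR 0.186) and H2bc4 was at -0.57 (SE 0.21, FDR 0.344).

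In non-diabetic retina, recovery from depletion was not accompanied by called histone genes. Of the 29 tested in ND_repopulated against ND none was called, where 0.0714% of all genes were called lower and 0.0844% higher, and 1 had an unadjusted p under 0.05 (3.45%, against 2.48% of all genes). The median of the 29 was 0.04, against 0.00 over all genes. H1f4 had a log2 value of 0.02 (SE 0.44), H2bc9 of 0.04 (SE 0.29) and H2bc4 of 0.22 (SE 0.20) in the authors' deposited table. The 2 comparisons of recovery share no group, so their difference was tested. In none of the 29 members did the recovery effect in diabetic retina (D10_repopulated over D10) differ from that in non-diabetic retina (ND_repopulated over ND) at an adjusted p under 0.05 by a normal test with Benjamini-Hochberg adjustment over 15400 genes, of which 0.188% were called. At an unadjusted p under 0.05 there were 5 members (17.2% of the 29, against 3.82% of all genes), and the median difference of the 29 was -0.56, against 0.00 over all genes. The largest of these 5 in size was that of H3c4, a log2 difference of -2.12 (SE 0.74), and H2bc4 stood at -0.79 (SE 0.29). Between recovery at 10 weeks (D10_repopulated over D10) and depletion at 8 weeks (D8_depleted over D8), 1 of 39 members differed, H2ac19, against 0.654% of 16672 genes.

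**Figure D3:**
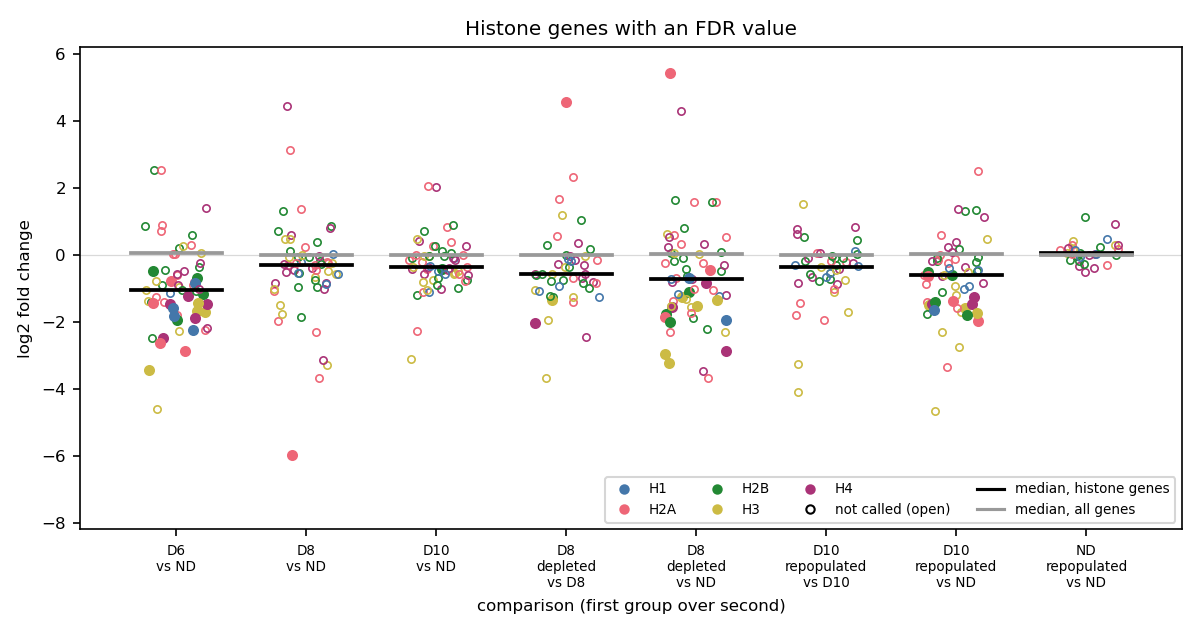
Log2 fold change (vertical axis) of each histone gene with an FDR value in the 8 comparisons (horizontal axis, first group over second). Filled points are called, open points are not, colours are histone classes, and the bars are the medians of the histone genes (black) and of all genes tested (grey); the black bar lies at -1.06 in D6, at -0.73 in D8_depleted and at -0.61 in D10_repopulated against ND.

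**Figure D4:**
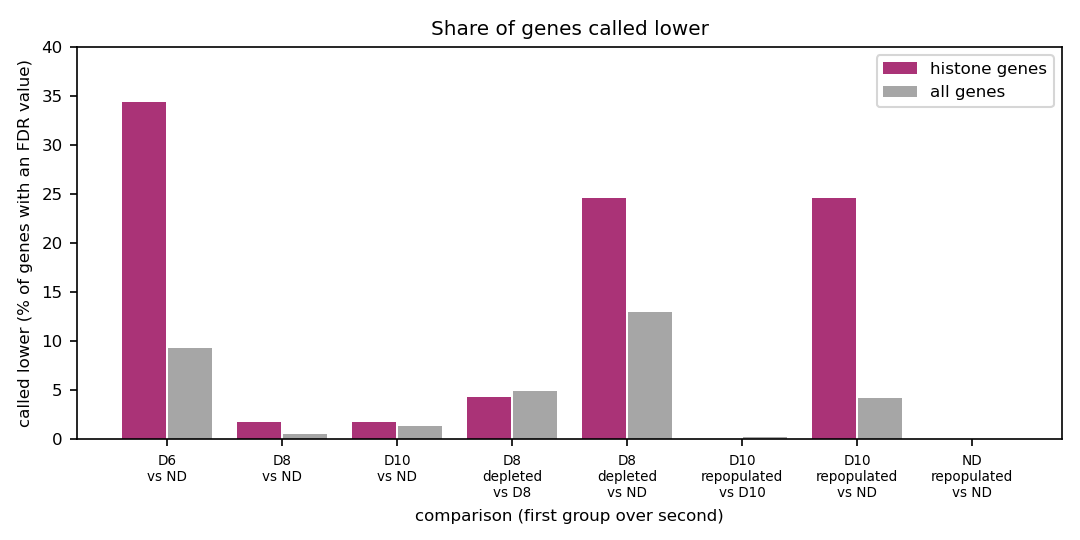
Share of genes called lower (vertical axis, percent of genes with an FDR value) in each comparison (horizontal axis) for the histone genes and for all genes. The histone bars are 34.4% in D6, 24.6% in D8_depleted and 24.6% in D10_repopulated against ND, and 0 in D10_repopulated against D10 and in ND_repopulated against ND.

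Across the comparisons 25 members were called at least once and 38 never. A set of 10 genes was called lower against ND in D6, D8_depleted and D10_repopulated alike: H1f4, H2ac7, H2ac18, H2bc6, H2bc9, H3c4, H3c14, H3c15, H4c9 and H4c12. They hold members of all 5 classes and lie on both chromosomes. They were 17.5% of the 57 members tested in all 3 comparisons, against 1.96% of the 17495 genes tested in all 3, and the 3 comparisons share the ND samples. These 10 were picked by their calls, and every comparison that uses the D6, D8_depleted, D10_repopulated or ND samples uses samples of that choice, so all of their values are a description. Their median log2 value was -1.70 in D6, -0.51 in D8, -0.59 in D10, -1.45 in D8_depleted and -1.55 in D10_repopulated, all against ND. In ND_repopulated against ND it was 0.04, and none was called there. Against the untreated group with the same weeks of diabetes, labelled PBS, their median was -1.06 in D8_depleted (over D8) and -0.77 in D10_repopulated (over D10). Of the 10, H2ac7, H2ac18, H3c15 and H4c12 have at least 50 percent of their 100-base stretches in another gene. Their reads may be split with copies. The other 6 share fewer, from 8.16% for H2bc9 to 32.85% for H3c14, so part of their reads may be split too.

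**Figure D5:**
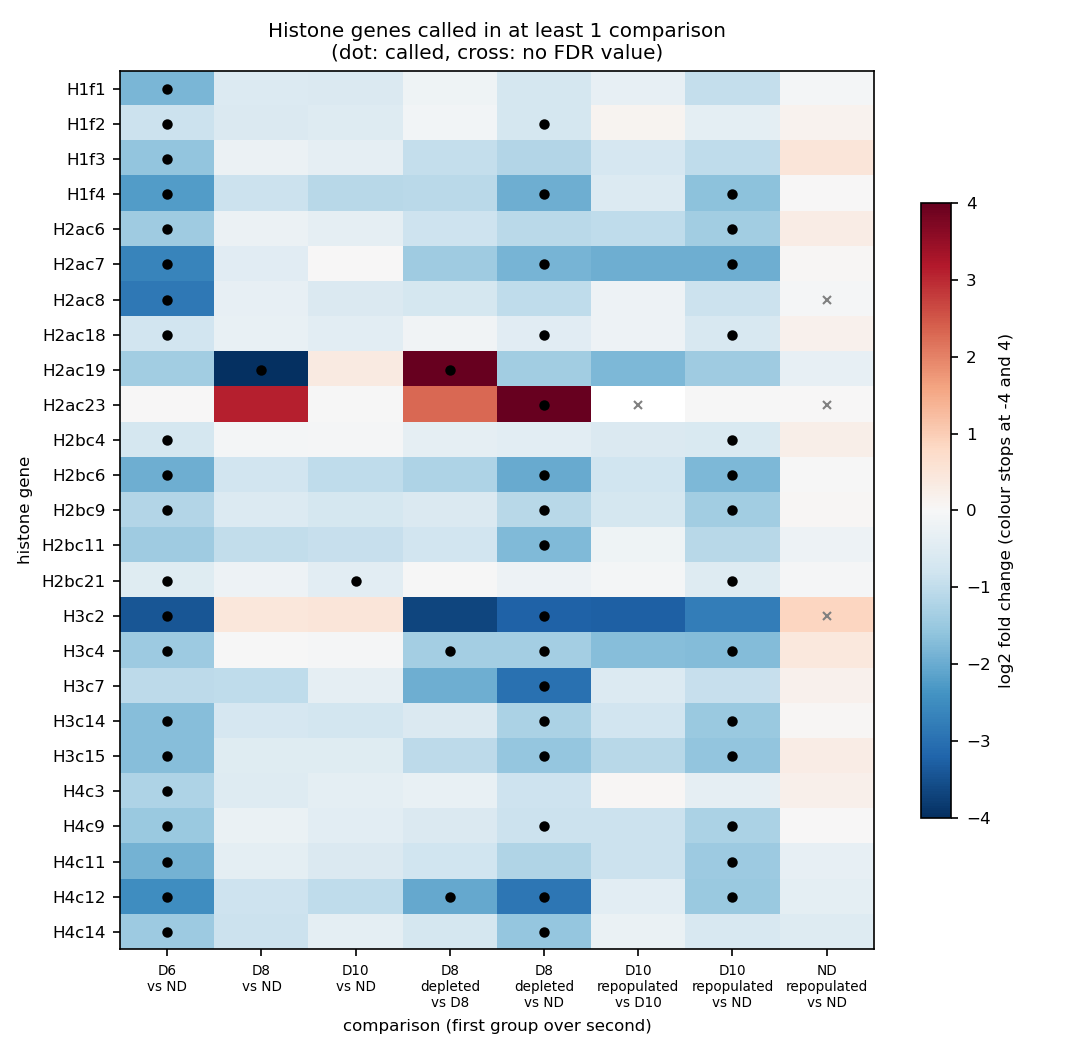
Log2 fold change (colour, blue lower and red higher, stopping at -4 and 4) of the 25 histone genes called in at least 1 comparison (rows, by class) in the 8 comparisons (columns, first group over second). Black dots are called and crosses have no FDR value; 21 dots stand in D6, 16 in D8_depleted and 14 in D10_repopulated against ND.

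Calls were unevenly shared between members with different annotated message ends. In D6 relative to ND, 13 of the 17 members whose transcript runs 100 or more bases past the stem-loop fell, against 3 of the 21 whose transcript ends within 100 bases of it, where 9.31% of all genes fell. The corresponding counts were 10 of 17 and 4 of 21 in D8_depleted, where 13.0% of all genes fell, and 8 of 17 and 2 of 19 in D10_repopulated, where 4.19% fell, against ND. Level moved with this split: the median level was 1.30 for the members with a long end and 0.0698 for those with a short end in the D6 table, and its part in the counts was not tested. Among the 10 members with no stem-loop found, 4 fell in D6, none in D8_depleted and 3 in D10_repopulated. H2ac18, whose transcript ends 35 bases after the stem-loop, was called in all 3, and H2bc8, at 155 bases, in none.

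Each gene cluster held called genes, at unequal shares. On chromosome 13 in GRCm39, 13 of the 29 tested members of the cluster at chr13:23715220-24118834 fell in D6, and 3 of the 22 in the cluster at chr13:21899933-22227846. On chromosome 3, 5 of the 10 members at chr3:96127181-96177448 fell, where 9.31% of all genes tested fell in D6. In D8_depleted against ND the counts, in the same order, were 8 of 29, 3 of 22 and 4 of 10, against 13.0% of all genes. The 3 of 22 there was near the share of all genes. In D10_repopulated against ND the counts were 7 of 29, 3 of 18 and 4 of 10, against 4.19% of all genes.

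Genes that act with the clustered histones were counted in lists of their own. The replication-independent variants, whose messages carry poly(A) tails and which are made throughout the cell cycle, had 11 genes with a row. In D6 1 of the 11 fell (9.09%, against 9.31% of all genes tested) and none rose (against 14.1%) relative to ND: H2az2, an H2A.Z gene, by 0.45 on the log2 scale (FDR 0.0015) in the authors' deposited table. In D8_depleted 1 fell (9.09%, against 13.0% of all genes tested), H1f0 by 0.31 (FDR 0.0362), and none rose (against 15.5%). In D10_repopulated H2az2 fell by 0.46 (FDR 0.00175) and H3f3b, an H3.3 gene, rose by 0.56 (FDR 0.034). Each was 9.09% of the 11, against 4.19% of all genes tested that fell and 7.49% that rose. The median of the variants lay between -0.10 and 0.06 in the 8 comparisons.

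Of 21 genes for the transcription and processing of histone messages, 3 rose (14.3%) and 2 fell (9.52%) in D6 relative to ND, shares near those of all genes tested, 14.1% and 9.31%. Npat, the coactivator of histone gene transcription, rose by 0.50 on the log2 scale (FDR 0.00379), and Cstf2, a cleavage factor of messenger RNA ends, rose by 0.45 (FDR 3.20e-04) in the authors' deposited table. Ssb, the La protein, rose by 0.34 (FDR 0.018). Eri1, the exonuclease that trims the histone stem-loop, fell by 0.78 (FDR 7.62e-04), and Ncbp2, a cap-binding subunit, fell by 0.41 (FDR 0.00617). In D8_depleted 2 rose and 4 fell, where 15.5% of all genes rose and 13.0% fell. In D10_repopulated 1 rose and 1 fell, where 7.49% of all genes rose and 4.19% fell, all against ND. Slbp was called in none of the 8 comparisons.

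Among 16 histone chaperones, which hand histones to DNA, 4 rose and none fell in D6 relative to ND, against 14.1% and 9.31% of all genes tested. Chaf1a, a subunit of the replication-linked chaperone CAF-1, rose by 0.77 (FDR 1.18e-04) on the log2 scale, and Hira, the chaperone of H3.3, rose by 0.77 (FDR 3.75e-05) in the authors' deposited table. In D8_depleted 5 rose (31.2%, against 15.5% of all genes) and none fell (against 13.0%), with Hira at 0.88 (FDR 6.04e-06), and in D10_repopulated 2 rose (12.5%, against 7.49% of all genes) and Nasp, which holds H3 and H4 in the cell, fell by 0.38 (FDR 0.0128). Against D8, 2 rose in D8_depleted (12.5%, against 5.85% of all genes), Chaf1b by 1.96 (FDR 0.0115) and Hira by 0.71 (FDR 9.07e-05).

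Of 30 genes of S phase and the cell cycle, 4 rose and 4 fell in D6 relative to ND, 13.3% each, against 14.1% of all genes tested that rose and 9.31% that fell. Uhrf1, a chromatin factor of replicating cells, rose by 2.09 (FDR 1.72e-04), Birc5 by 1.24 (FDR 0.00338) and Cdt1, a replication licensing factor, by 1.14 (FDR 1.66e-05) on the log2 scale in the authors' deposited table. Ccna2, a cyclin of S phase, rose by 0.52 (FDR 0.00202). Those that fell were Rrm1, a subunit of ribonucleotide reductase, by 0.62 (FDR 4.39e-05), Mcm7 by 0.40 (FDR 0.0368), Mcm4 by 0.37 (FDR 0.0395) and Pcna, the replication clamp, by 0.31 (FDR 0.0353). In D8_depleted 3 of the 30 rose (10.0%, against 15.5% of all genes) and 2 fell (6.67%, against 13.0%) relative to ND. Relative to ND, 1 rose in D10_repopulated (3.33%, against 7.49% of all genes) and 1 in D10 (3.33%, against 5.59%). The median of the 30 was -0.12 in D6, -0.06 in D8_depleted and 0.12 in D10_repopulated against ND.

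Markers of other cells moved in the same samples, and their part in the histone results was not tested. Retinal identity was checked on 16 markers, of which all were measured, with a larger group mean of 3629.6 for Gnat1, the transducin subunit of rod photoreceptors, in the authors' deposited table of D6 against ND. For these lists, the shares of all genes tested that rose and fell against ND were 14.1% and 9.31% in D6, 2.33% and 0.583% in D8, 5.59% and 1.41% in D10, 15.5% and 13.0% in D8_depleted, and 7.49% and 4.19% in D10_repopulated. Of the 16, 2 rose and 3 fell in D6, 1 rose and 6 fell in D8_depleted, and 2 rose and 1 fell in D10_repopulated, against ND. In D8 2 of the 16 rose and 0 fell, and in D10 1 rose and 1 fell. Of 7 pigment epithelium markers, 2 rose in D8_depleted and 1 in D10_repopulated, against none in D6. All 10 microglia markers fell in D8_depleted relative to ND (median -4.43 on the log2 scale), and 6 fell in D10_repopulated (median -1.22), while 1 rose and 1 fell in D6. In D8 2 of these 10 rose and 0 fell, and in D10 2 rose and 2 fell. Of 11 lens markers, 10 fell in D8_depleted and 8 in D8, and 2 rose in D6, against ND. Of 6 red blood cell markers, 1 fell in D6, 4 in D8 and 5 in D10, against ND. All 5 markers of corneal and conjunctival epithelium rose in D8_depleted, 4 in D10_repopulated and 1 in D10, against none in D6 or D8. Leukocyte markers rose in 3 of 8 tested in D6, 4 of 9 in D8_depleted and 4 of 7 in D10_repopulated. They also rose in 5 of 7 in D10, against 0 of 7 in D8, and 1 of the 9 fell in D8_depleted. Relative to D8, 5 of 16 retinal, 10 of 10 microglia and 4 of 10 lens markers fell in D8_depleted, against 4.90% of all genes. The markers that rose there were 5 of 5 corneal and conjunctival, 4 of 5 red blood cell and 2 of 7 pigment epithelium markers, against 5.85%. Of 6 leukocyte markers tested there, 2 rose and 1 fell. Relative to D10, 3 of 10 microglia markers fell in D10_repopulated and 4 of 6 red blood cell markers rose. There 2 of 7 pigment epithelium markers rose and 1 fell, against 0.178% and 0.267% of all genes. No other marker was called in that comparison. In ND_repopulated relative to ND, 1 of 11 lens markers rose, against 0.0844% of all genes, and no other marker was called. The summed level of a list in each group, and the marker levels at 0, were not analysed here, because the deposited tables give only the larger mean of a pair.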

How the data were processed

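Stranded poly(A) libraries of mouse retina were sequenced as paired reads of 100 bases, per the labels' protocols. The genome was GRCm39, per the submitters' processing notes. For the aligner, counter, test and scaling, nothing was found in those notes or the labels. There were 8 deposited tables of 25655 genes. The log2 fold changes and the signed fold changes were made by the authors and deposited for a pair of groups, and the sign of D10 against D10_repopulated was turned. The p-values and FDR p-values are those the authors deposited, and recomputing the adjustment by Benjamini-Hochberg gave the same FDR to within 4.89e-04. The signal is the larger group mean, per the file headers, in a unit not stated. A repeated group mean agreed within 0.1 percent between tables in 92.6% of 36376 cases, by the sign of the fold change, and a mean that did not was left out.

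The members and lists were chosen with earlier results of these data known. Members with a deposited FDR were counted as tested and called under 0.05. The standard error was the log2 fold change over the normal quantile of p. The difference of comparisons with no shared group was tested by a normal test with variances added and Benjamini-Hochberg adjustment. Named genes were called members, the 2 highest members of each class, and called genes of the lists; other genes named were chosen after their values were seen. Transcripts came from GENCODE M21 (all 63 members matched by Ensembl number) and promoter windows from RefSeq (GRCm38.p6). Sharing of 100-base stretches was counted between genes with a row, and a member with at least 50 percent shared was counted as sharing reads. No row of the tables matched the list of other RNAs without poly(A). Depth per sample, values per library and their spread were not analysed here. Only the implied standard error and the difference test were run on simulated data, drawn with the implied errors of these comparisons. The adjustment was checked on a small worked example. The other steps were not simulated. Python 3.11.15, numpy 2.4.6, pandas 2.3.3, scipy 1.17.1 and matplotlib 3.10.9 were used. Alternatives were other thresholds, a minimum change, a filter on level, other sets of members and, chosen after seeing the data, the omission of members that share reads or have few.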

Additional observations from a re-analysis of the deposited data

Results flagged for a closer look

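H2ac19, an H2A gene on chromosome 3, stood out because its change differed between 2 comparisons that share no group. Its log2 fold change was -1.79 for recovery (D10_repopulated over D10) and 4.57 for depletion (D8_depleted over D8), a difference of -6.3578 with an implied standard error of 1.48. A normal test of that difference, with Benjamini-Hochberg adjustment across 16672 genes, called it at an adjusted value of 0.007. All of its 100-base stretches also occur in H2ac18, whose values in these comparisons were -0.21 and -0.15. The part that reads shared with H2ac18 play in the difference was not tested.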

How the results depend on the processing

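The count of 21 members called in D6 against ND stayed within 1.5 times of itself under every alternative run, with 16 left when members that share reads were omitted. In D8_depleted against ND the 16 called members became 6 at an FDR under 0.01 and 10 without members that share reads. In D10_repopulated against ND the 14 became 9 at an FDR under 0.01. In D8_depleted against D8 the 3 became 1 at an FDR under 0.01, 7 at an FDR under 0.10 and 1 without members that share reads. In D10 against ND the 1 became 0 at an FDR under 0.01, 2 at an FDR under 0.10 and 0 with a log2 change of at least 1 required. In D8 against ND the 1 became 0 without members that share reads. The 76 other alternative values stayed within set limits, though many counts changed. For a count the limit was 1.5 times, and for a median it was the median implied error of the members tested. That limit is wide for the medians. In D8_depleted against D8 it was 0.59, where the median went from -0.36 to -0.58. No alternative reversed a median. No paired analysis was possible because the deposited tables give no value per sample, and for the same reason leaving out each replicate in turn was not run. Few reads limit 19 members, and the median implied error of those tested lay between 1.03 and 1.47 on the log2 scale in the 7 comparisons that tested any.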
